A study of Mus musculus with 6 samples.

Results

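The IL-4 receptor pathway of macrophages was examined through 10 genes: the receptor chains Il4ra, Il2rg and Il13ra1, the kinases Jak1 and Jak3, the transcription factor Stat6, the feedback inhibitors Cish, Socs1 and Socs3, and the IL-4 induced gene Il4i1. They were matched by gene symbol, and all 10 were found among the 56092 symbols of the count table and passed the filter on low counts that left 13528 genes for testing. The cells were RAW264.7, a mouse macrophage cell line. Stable lines had been made by lentiviral transduction and puromycin selection, either a control (shNC, n = 3) or a Trem2 knockdown (shTrem2, n = 3). The labels call the control an empty vector, whereas the study's methods list a negative control hairpin for it. In both groups IL-4 was given first (20 ng/mL, 24 hours), and the cells were then cultured for 24 hours with debris of TCMK-1 cells, a mouse renal tubular epithelial line broken up by freezing and thawing. No library without IL-4 or without debris was analysed here, so each comparison is between the shRNA groups and none measures the response to IL-4 itself. The labels do not say which shRNA construct was used or whether the replicates were separate cultures, so a p-value here measures the spread between these samples, which may be technical.

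IL-4 binds the chain encoded by Il4ra, which then pairs with the common gamma chain (Il2rg) in the type I receptor or with the IL-13 receptor chain (Il13ra1) in the type II receptor. Myeloid cells can use both forms. JAK1 is associated with the IL-4 receptor chain and JAK3 with the common gamma chain, while the IL-13 receptor chain works with TYK2 or JAK2. The kinases phosphorylate STAT6, which moves to the nucleus and drives the genes of alternative macrophage activation. CISH, SOCS1 and SOCS3 are SH2 proteins that are induced by cytokines and restrain JAK-STAT signalling, CISH being a classical target of STAT5.

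Compared with the shNC group, shTrem2 cells had 8.90-fold less Il4i1, 4.97-fold less Cish and 2.58-fold less Il4ra, and 2.31-fold more Il13ra1. Il2rg, Jak1, Jak3, Stat6, Socs1 and Socs3 differed by 1.27-fold or less. By the criteria used here for a differentially expressed gene (DEG), which were a Benjamini-Hochberg FDR under 0.05 in edgeR's quasi-likelihood test and a fold change over 1.5, 4 of the 10 genes were DEGs, 1 higher and 3 lower. Over all tested genes 21.8% were DEGs, with 9.46% higher and 12.4% lower in shTrem2. By FDR alone 7 of the 10 passed, beside 57.4% of all tested genes. The 3 shTrem2 values did not overlap the 3 shNC values for 8 of the 10 genes, beside 63.8% of all tested genes. The median log2 fold change of the 10 genes was -0.07, and 5 were higher and 5 lower. The corresponding median over all tested genes was -2.8e-05.

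**Figure D1:**
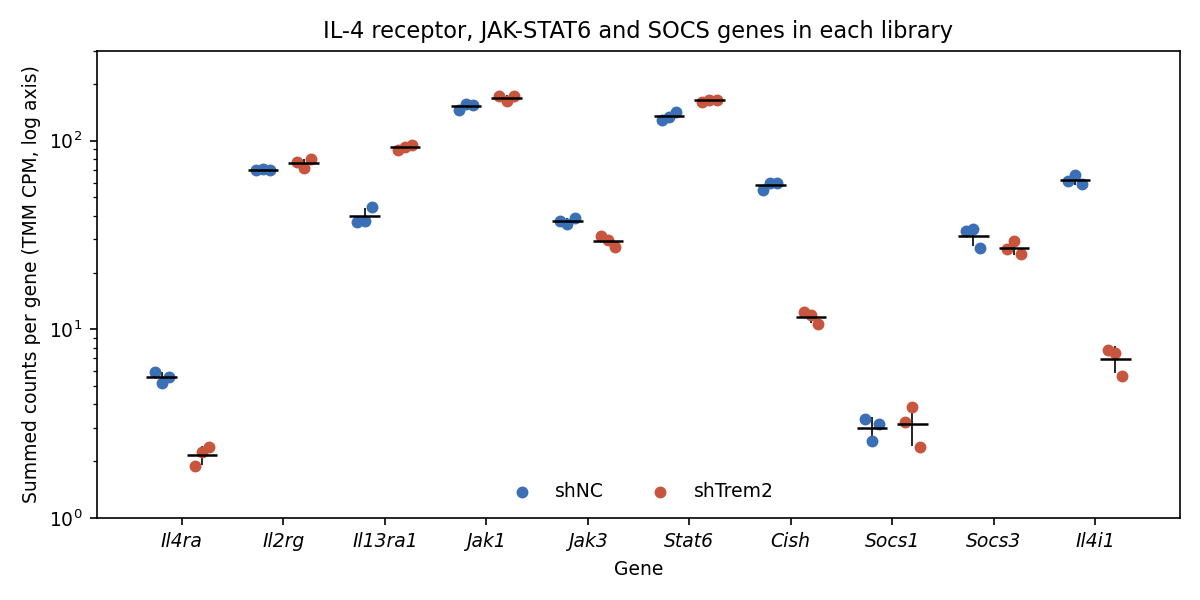
Level of each of the 10 genes in each library, as summed CPM after TMM scaling on a log axis, with shNC in blue and shTrem2 in red. Horizontal lines are means of 3 libraries and vertical lines are 1 SD. Il4ra, Cish and Il4i1 lie lower and Il13ra1 higher in all 3 shTrem2 libraries, and the groups overlap for Socs1 and Socs3.

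**Figure D2:**
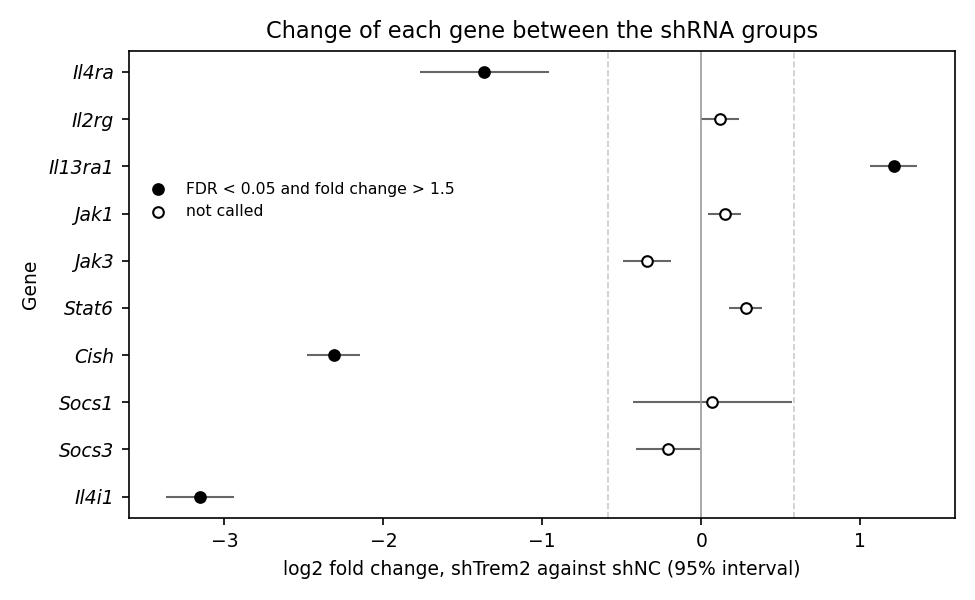
Log2 fold change of each gene, shTrem2 against shNC, with its 95% interval. Filled points passed both criteria and dashed lines mark the 1.5-fold threshold. Il4i1 lies at -3.15, Cish at -2.31, Il4ra at -1.37 and Il13ra1 at 1.21, and the other 6 genes lie between -0.34 and 0.28.

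The libraries held between 15876061 and 19655158 counts assigned to gene symbols, so that a gene with 0 counts may still have had up to 3, which is 0.153 to 0.189 CPM (counts scaled to a common library size). The limit covers counting error only. The knockdown was seen in the RNA: Trem2 lay between 114 and 144 CPM in shNC and between 63.1 and 80.1 CPM in shTrem2, a log2 fold change of -0.87 (SE 0.09, edgeR FDR 3.39e-06). Its coding transcript Trem2-201 lay between 63.0 and 77.5 CPM in shNC and between 11.6 and 19.2 CPM in shTrem2. The retained-intron row Trem2-203 went the other way, from between 25.0 and 32.2 CPM to between 43.8 and 55.3 CPM, and held 22.7% ± 0.85 of the gene's counts in shNC and 69.2% ± 1.63 in shTrem2 (SD, n = 3 each). Of 10 macrophage markers 9 were tested, 4 of them DEGs (3 higher, 1 lower), and the summed level of the list lay between 5434 and 6431 CPM in shNC and between 10540 and 11960 CPM in shTrem2. That difference was mostly Lyz2 (log2 fold change 1.39). Of the 9 tested, 7 were higher and 2 lower. The lower ones were Itgam, a DEG (log2 fold change -0.78, edgeR FDR 8.43e-09), and Adgre1, under the fold threshold (-0.56, edgeR FDR 3.54e-05). The efferocytosis receptor gene Mertk was at 3 counts or fewer in every library. Of 14 tubular epithelial markers 9 were at 0 in all libraries, among them Epcam, Krt8 and Umod, and the list summed to at most 1.43 CPM in shNC and 2.82 CPM in shTrem2. Aqp1 was the only one tested, having passed the filter on low counts only through shTrem2, and was a DEG. It held 12, 6 and 5 counts in shNC and 38, 50 and 39 in shTrem2 (log2 fold change 2.30, edgeR FDR 0.000161). Of 10 T, B and NK cell markers only Lck was tested, and the list summed to at most 4.40 and 5.79 CPM. Lck was a DEG, higher in shTrem2 (log2 fold change 0.62, edgeR FDR 0.0117). The 6 dendritic cell markers summed to between 12.1 and 14.2 CPM in shNC and to between 32.8 and 37.4 CPM in shTrem2. Of these, 2 were tested and both were DEGs in opposite directions, Itgax with a log2 fold change of 2.58 and Zbtb46 with -0.84 (edgeR FDR 1.37e-08 and 0.000863), while Flt3 and Cd209a were at 0. The part of the rise of Lyz2 and Itgax in the results below was not tested. In bulk RNA, fewer cells that express a gene and less of its RNA per cell cannot be told apart.

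The receptor chains changed in different directions. Il4ra (ENSMUSG00000030748), the chain that binds IL-4 and is shared by both receptor forms, is annotated at chr7:125552120-125579474 on the plus strand. Coordinates here are from GENCODE M21 on the GRCm38 build, whereas the counts were made on GRCm39. Il4ra was at 5.96, 5.21 and 5.60 CPM in the shNC libraries and at 1.88, 2.24 and 2.37 CPM in the shTrem2 libraries. The highest shTrem2 value was below the lowest shNC value, and the difference passed both criteria with a log2 fold change of -1.37 (SE 0.19, edgeR FDR 3.24e-05). The gene was measured with few reads, between 94 and 102 counts per shNC library and between 36 and 46 per shTrem2 library.

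The counts of Il4ra were spread over several transcripts, and the split between them was uneven. The full coding transcript Il4ra-201 was at 4.43, 4.83 and 2.21 CPM in shNC and at 1.88, 1.83 and 1.97 CPM in shTrem2. A transcript annotated for nonsense-mediated decay, Il4ra-205, took 24.6%, 5.90% and 57.6% of the gene's counts in the 3 shNC libraries. For the coding transcript the groups still did not overlap, but shNC replicate 3 came close to the shTrem2 values. The log2 ratio of the group means was -1.01 for Il4ra-201, against -2.87 for Il4ra-205. Il4ra-205 was at 1.47, 0.31 and 3.23 CPM in shNC and at 0, 0.34 and 0.34 CPM in shTrem2, so its groups overlapped. Rebuilding the gene's FPKM from these transcripts left an error of up to 4.59%, larger than for the other genes, so this assignment is less certain.

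Il13ra1 (ENSMUSG00000017057), the chain that forms the type II receptor with the product of Il4ra, has a single annotated transcript of 3712 nt at chrX:36112110-36171259 on the plus strand. Its values were 37.2, 37.6 and 44.5 CPM in shNC and 89.6, 92.2 and 94.6 CPM in shTrem2. Each shTrem2 library held at least 1720 counts of the gene, and none came near the shNC libraries, where the highest count was 810. This gave a log2 fold change of 1.21 (SE 0.07, edgeR FDR 9.34e-09).

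Il2rg (ENSMUSG00000031304, chrX:101264378-101268255, minus strand) encodes the common gamma chain, which is shared with the receptors of other lymphoid and myeloid cytokines. It was at 70.2, 70.5 and 70.3 CPM in shNC and at 77.1, 71.8 and 79.9 CPM in shTrem2. The counts did not overlap, yet the log2 fold change was 0.12 with a 95% interval from -0.00 to 0.24 (edgeR FDR 0.0874). On the FPKM scale, which divides by transcript length, the groups overlapped at 63.9 ± 0.87 and 62.1 ± 2.99 (mean ± SD, n = 3 each), and the sign of the difference turned. Its coding transcript Il2rg-201 took 88.8% ± 1.21 of the gene's counts in shNC and 92.7% ± 0.48 in shTrem2, while the share of the short non-coding transcript Il2rg-202 was 3.09% ± 0.31 and 1.03% ± 0.09 (SD, n = 3 each). For both shares the groups did not overlap, and a two-sided exact permutation test of 3 against 3 libraries gave p = 0.1, the smallest value that it can reach.

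The ratio of the type II chain to the common gamma chain separated the groups. In FPKM, which allows levels of different genes to be compared, Il13ra1 stood at 0.176, 0.173 and 0.203 of the level of Il2rg in shNC and at 0.413, 0.453 and 0.423 of it in shTrem2. The log2 ratio differed by 1.22 (two-sided exact permutation p = 0.1, the smallest possible, and 0.133 after adjustment over the 4 ratios compared). All 3 shTrem2 ratios lay above all 3 shNC ratios. Il2rg had a log2 fold change of 0.12, so this ratio mostly restates the change of Il13ra1.

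The kinases and the transcription factor changed little. Jak1 (chr4:101152367-101265282) was at 146, 157 and 155 CPM in shNC and at 174, 162 and 172 CPM in shTrem2. The log2 fold change was 0.15 with a 95% interval from 0.05 to 0.25 (edgeR FDR 0.0168), below the fold threshold. This FDR depended on the setting and was not under 0.05 in 6 of 18 alternatives. It was 0.121 without shNC replicate 1, 0.0737 without shTrem2 replicate 1, 0.0524 with library size only, 0.0965 with an effective-length offset and 0.257 for limma on log2 FPKM with either pseudocount.

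Jak3 (chr8:71676296-71690575), the kinase of the common gamma chain, was at 37.3, 36.0 and 39.0 CPM in shNC and at 31.3, 29.8 and 27.4 CPM in shTrem2. The groups did not overlap. The log2 fold change was -0.34 (SE 0.07, edgeR FDR 0.000859), a 1.27-fold difference that also stayed under the fold threshold. The transcript row with the most counts over all libraries, taken alone, gave -0.05 with an FDR of 0.773, and the other main row, nearly as abundant, had a log2 ratio of the group means of -0.56. Jak3 shares 404 exonic bases with Insl3 on the same strand, which was at 1.21 CPM or lower in every library. In FPKM the ratio of Jak3 to Jak1 was 0.317, 0.279 and 0.326 in shNC and 0.225, 0.233 and 0.202 in shTrem2. The log2 ratio differed by -0.48 (exact permutation p = 0.1, adjusted 0.133).

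Stat6 (ENSMUSG00000002147, chr10:127642986-127660957, plus strand) was at 128, 133 and 142 CPM in shNC and at 160, 165 and 165 CPM in shTrem2. The groups did not overlap. The log2 fold change was 0.28 (SE 0.05, edgeR FDR 0.000234), a 1.22-fold higher level that is under the fold threshold. The full coding transcript Stat6-201 held 98.2% ± 0.37 of its counts in shNC and 98.9% ± 0.19 in shTrem2 (SD, n = 3 each). These are RNA levels, and phosphorylation of STAT6 was not measured in these files.

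Among the feedback inhibitors, Cish differed and Socs1 and Socs3 were not called. Because STAT proteins bind palindromic sites with a TTC and a GAA arm, the promoter windows of these genes were searched for TTCNNNGAA, the spacing typical of most STATs, and for the same arms with NNNN between them, the wider spacing preferred by STAT6. Both motifs read the same on either strand. The windows ran from 250 bases before to 50 bases after the RefSeq start (GRCm38.p6). The Cish window, at chr9:107296409-107296708 on the plus strand, held a pair of TTCNNNGAA matches at bases 1 to 9 and 12 to 20 from the start. The stretch at chr9:107296655-107296682 is shown because it carries both matches, which are in capitals:

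Cish: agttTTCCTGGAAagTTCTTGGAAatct

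In GENCODE this stretch lies in the first exon of the long transcript Cish-201, and the pair of matches lies between 32 and 51 bases before the start of the shorter Cish-204. The Socs3 window held 1 match, from 154 to 146 bases before the start, and the Socs1 window held none. Their upstream bases that fall in no annotated exon are shown for comparison with Cish, with the match in capitals, at chr11:117969452-117969616 and chr16:10785537-10785786, both on the minus strand:

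Socs3: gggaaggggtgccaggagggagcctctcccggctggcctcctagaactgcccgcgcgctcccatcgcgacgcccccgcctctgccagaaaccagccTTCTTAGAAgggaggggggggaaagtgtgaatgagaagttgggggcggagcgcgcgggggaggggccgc

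Socs1: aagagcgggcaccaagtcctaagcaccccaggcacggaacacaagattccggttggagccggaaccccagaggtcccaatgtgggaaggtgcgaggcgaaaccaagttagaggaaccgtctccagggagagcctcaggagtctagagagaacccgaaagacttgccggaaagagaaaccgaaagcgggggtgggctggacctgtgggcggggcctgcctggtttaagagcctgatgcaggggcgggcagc

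Of 32851 windows of this length, 8.3% held at least 1 TTCNNNGAA and 0.457% held at least 2, while 6.95% held the wider motif. Of the windows of the 10 genes, 2 held TTCNNNGAA (Cish and Socs3) and 0 held the wider motif. A match is a string of letters in the window, and no binding was measured.

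Cish (ENSMUSG00000032578) was at 54.7, 59.6 and 59.9 CPM in shNC and at 12.4, 12.0 and 10.7 CPM in shTrem2. The libraries of each group lay close together and the groups were far apart, with a log2 fold change of -2.31 (SE 0.08, edgeR FDR 9.87e-11).

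The fall of Cish was unequal among its transcripts. Cish-201, which starts upstream of the paired motif, was at 32.6, 35.5 and 31.1 CPM in shNC and at 3.80, 4.20 and 4.38 CPM in shTrem2, a log2 ratio of the means of -3.00. Cish-204, which starts downstream of it, was at 11.6, 13.6 and 14.7 CPM in shNC and at 5.76, 4.61 and 3.76 CPM in shTrem2, a log2 ratio of -1.50. The non-coding Cish-202, which also starts downstream of the paired motif, lay between them at -2.05. All 3 transcripts were lower in every shTrem2 library than in any shNC library. The share of Cish-201 in the gene's counts was 57.0% ± 4.39 in shNC and 35.6% ± 5.17 in shTrem2, and that of Cish-204 was 22.8% ± 1.67 and 40.0% ± 5.80 (SD, n = 3 each, two-sided exact permutation p = 0.1 for each, the smallest possible). These transcripts share most of their exons, so their separate counts are estimates by the authors' software.

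**Figure D3:**
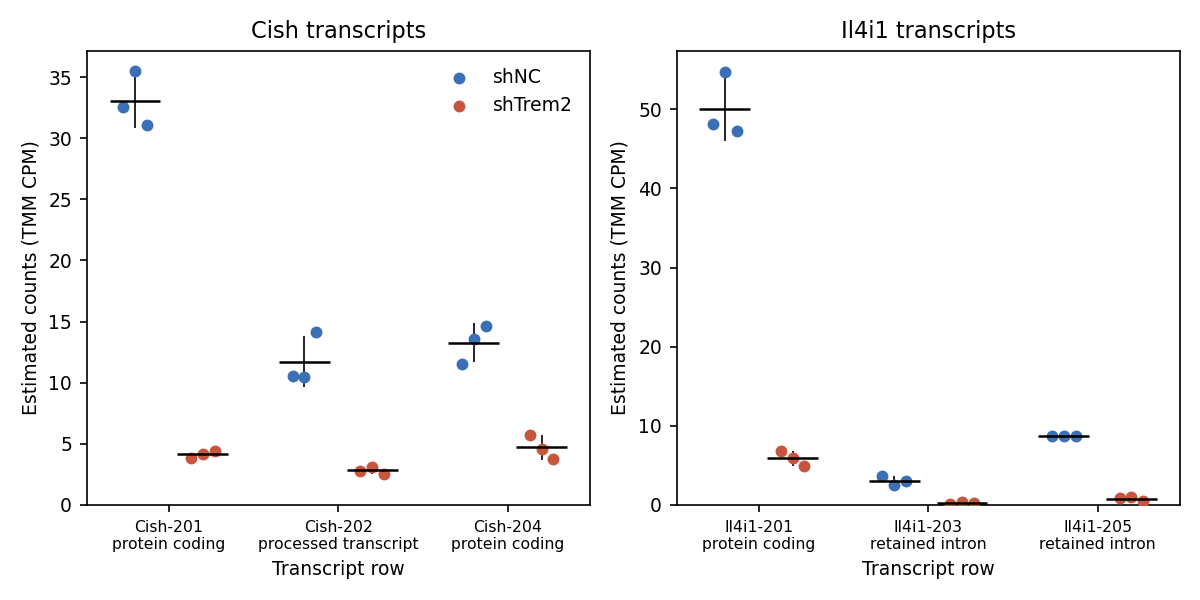
Estimated counts of the 3 most abundant transcript rows of Cish and of Il4i1 in each library, in CPM after TMM scaling, with shNC in blue and shTrem2 in red. Horizontal lines are means of 3 libraries and vertical lines are 1 SD. Cish-201 fell from a mean of 33.1 to 4.13 CPM and Cish-204 from 13.3 to 4.71 CPM, while Il4i1-201 lay between 47.3 and 54.7 CPM in shNC and between 4.87 and 6.79 CPM in shTrem2.

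Socs1 (chr16:10782240-10785536, minus strand), an inhibitor of JAK1, JAK2 and TYK2, was low throughout. It was at 3.35, 2.55 and 3.13 CPM in shNC and at 3.23, 3.86 and 2.37 CPM in shTrem2. The shTrem2 libraries included both the highest and the lowest value. The log2 fold change was 0.07 with a 95% interval from -0.43 to 0.57 (edgeR FDR 0.818), so at between 46 and 74 counts per library a moderate change in either direction was not detectable.

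Socs3 (chr11:117966079-117970047, minus strand), an inhibitor that acts mainly at gp130 receptors, was at 33.0, 34.0 and 27.0 CPM in shNC and at 26.6, 29.4 and 25.1 CPM in shTrem2. The groups overlapped through shNC replicate 3. The log2 fold change was -0.21 with a 95% interval from -0.41 to -0.01 (edgeR FDR 0.0683). The FDR was under 0.05 in 5 of 18 alternatives: 0.00743 without shNC replicate 3, 0.0339 without shTrem2 replicate 2, 0.0257 with the replicate block, 0.029 with no filter beyond 1 count and 0.0399 with library size only.

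Relative to Socs1, Cish separated the groups and Socs3 did not. Socs1 had a log2 fold change of 0.07, so the ratio of Cish to Socs1 mostly restates the change of Cish. The FPKM ratio of Cish to Socs1 was 14.9, 21.5 and 17.2 in shNC and 3.89, 2.75 and 4.10 in shTrem2, a difference of -2.30 in the log2 ratio (exact permutation p = 0.1, adjusted 0.133). The ratio of Socs3 to Socs1 was 11.0, 15.5 and 9.65 in shNC and 9.18, 8.46 and 11.9 in shTrem2. Here the groups overlapped, with a difference of -0.27 in the log2 ratio (exact permutation p = 0.4, adjusted 0.4).

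Il4i1 (ENSMUSG00000074141) encodes a secreted L-amino acid oxidase that breaks down phenylalanine and other amino acids and was named for its induction by IL-4. It was at 61.0, 66.2 and 59.2 CPM in shNC and at 7.77, 7.52 and 5.66 CPM in shTrem2. The highest shTrem2 value was far below the lowest shNC value. The gene had a log2 fold change of -3.15 (SE 0.10, edgeR FDR 8.54e-11).

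The gene's annotation spans chr7:44816387-44840809 on the plus strand, because some of its transcripts begin at the upstream gene Nup62, but most of its counts came from a transcript with a start of its own. Il4i1-201, of 2048 nt at chr7:44836287-44840809, was at 48.1, 54.7 and 47.3 CPM in shNC and at 6.79, 5.98 and 4.87 CPM in shTrem2. It held 80.5% ± 1.97 of the counts in shNC and 84.5% ± 4.22 in shTrem2 (SD, n = 3 each). The retained-intron rows Il4i1-205 and Il4i1-203 fell with it, with log2 ratios of the means of -3.44 and -3.69. Nup62, named after its values were seen, was at between 150.5 and 169 CPM in shNC and between 165 and 184 CPM in shTrem2, a log2 fold change of 0.16 (edgeR FDR 0.0255). On the opposite strand Tbc1d17, also named after its values were seen, shares 3423 exonic bases with Il4i1 and was lower too, with a log2 fold change of -0.67 (edgeR FDR 1.8e-05). The library kit keeps the strand and the alignment was orientation-aware. How far Tbc1d17 reads enter the counts of Il4i1 was not tested.

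The order of the genes by level per transcript length differed between the groups. In shNC, Il2rg had the highest level at 63.9 ± 0.87 FPKM, followed by Il4i1 at 44.9 ± 3.36, Stat6 at 44.3 ± 1.29, Jak1 at 34.6 ± 1.45 and Cish at 21.3 ± 1.01 (SD, n = 3). Below them came Socs3 at 14.3 ± 2.01, Il13ra1 at 11.8 ± 1.14, Jak3 at 10.6 ± 0.53, Il4ra at 1.97 ± 0.87 and Socs1 at 1.21 ± 0.17 FPKM. The ranges over libraries overlapped for the neighbouring pairs Il4i1 and Stat6, Socs3 and Il13ra1, Il13ra1 and Jak3, and Il4ra and Socs1.

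In shTrem2, Il2rg was again highest at 62.1 ± 2.99 FPKM, followed by Stat6 at 50.4 ± 1.15, Jak1 at 36.7 ± 1.42, Il13ra1 at 26.6 ± 0.80 and Socs3 at 11.9 ± 0.95 (SD, n = 3). Jak3 stood at 8.07 ± 0.50, Il4i1 at 4.84 ± 1.01, Cish at 4.32 ± 0.57, Socs1 at 1.24 ± 0.30 and Il4ra at 0.68 ± 0.27 FPKM. Among neighbours in this order the ranges overlapped only for Il4i1 and Cish. Il4i1 stood at rank 2 in shNC and rank 7 in shTrem2, Cish at ranks 5 and 8, and Il13ra1 at ranks 7 and 4. In both groups Il4ra was far below the chains it pairs with. Its FPKM in the shNC libraries was 1.91, 1.13 and 2.86. The row assigned to Il4ra-203, of 434 nt, held 1, 0 and 3 counts there. FPKM divides by transcript length, so a few counts on a short transcript weigh heavily. The rank of Il4ra beside Socs1 in shNC is therefore uncertain.

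**Figure D4:**
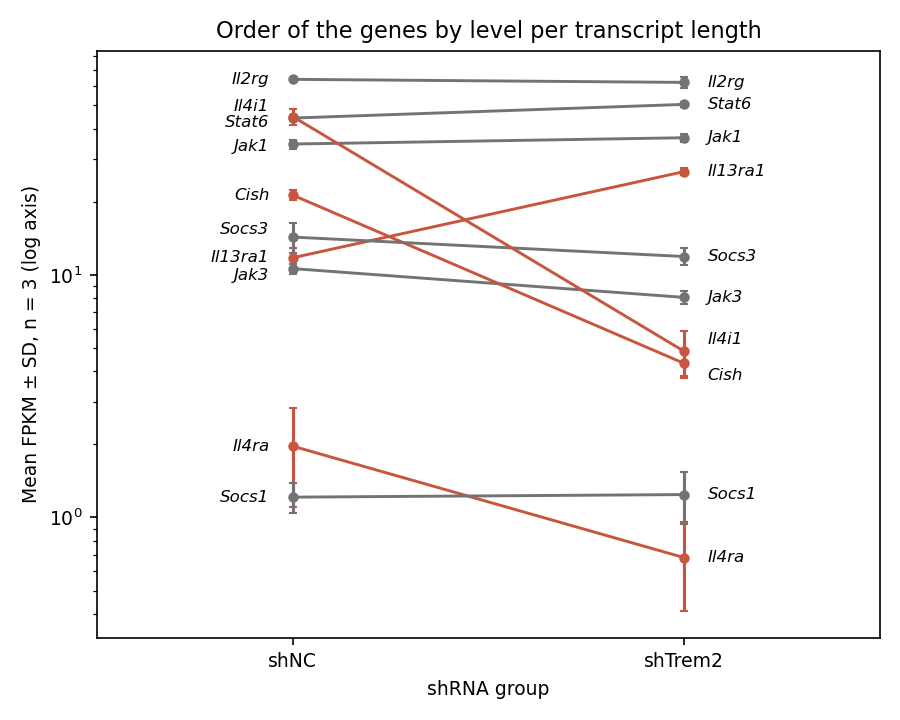
Mean FPKM of each gene in shNC and shTrem2 on a log axis, with bars of 1 SD (n = 3) and lines joining the group means. Red lines mark the 4 genes that passed both criteria. Il4i1 and Cish drop below Jak3 in shTrem2, Il13ra1 rises above Socs3, and the means of Il4ra and Socs1 change places. The ranges of Il4ra and Socs1 overlap in shNC.

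The other genes of the pathway were taken from lists by role. Beside the counts below, 21.8% of all tested genes were DEGs and 57.4% passed FDR alone. Of 11 genes for IL-4 and IL-13, their decoy and the other receptors that use the common gamma chain or resemble it, 4 were tested, and the median log2 fold change was -0.37. A single one was a DEG: Il7r, which encodes the IL-7 receptor chain, was at 2.98, 3.21 and 3.02 CPM in shNC and at 0.73, 1.15 and 1.60 CPM in shTrem2, a log2 fold change of -1.40 (edgeR FDR 0.000845). Il4 and Il13 themselves were at 1 count or fewer in every library, so the cells' own RNA for these ligands was under the limit of detection.

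Jak2 and Tyk2, the kinases that work with the IL-13 receptor chain, were lower, in contrast to the chain itself. Of the 7 other JAK and STAT genes reported here, 6 were tested and 3 were DEGs, all lower, with a median log2 fold change of -0.36 over the 6. Jak2 was at 157, 149 and 139 CPM in shNC and at 64.1, 64.5 and 59.7 CPM in shTrem2, a log2 fold change of -1.24 (SE 0.06, edgeR FDR 1.4e-09). Tyk2 was at 231, 229 and 219 CPM in shNC and at 123, 125 and 110 CPM in shTrem2, a log2 fold change of -0.92 (SE 0.05, edgeR FDR 1.07e-08). For both kinases every shTrem2 library was below every shNC library.

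Among the other STATs, Stat5a, a factor of CSF2 and other growth signals, fell. Stat5a was at 58.6, 59.8 and 58.6 CPM in shNC and at 36.4, 38.8 and 36.7 CPM in shTrem2, with a log2 fold change of -0.66 (SE 0.06, edgeR FDR 4.2e-07). Its paralog Stat5b had a log2 fold change of 0.27 (edgeR FDR 0.00146), under the fold threshold, and Stat3 had -0.06 (95% interval from -0.18 to 0.05, edgeR FDR 0.336).

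Of 17 other SOCS, phosphatase and PIAS genes that restrain JAK-STAT signalling, 16 were tested and 0 were DEGs by edgeR. By FDR alone 9 of the 16 passed (4 higher, 5 lower), beside 57.4% of all tested genes. An unadjusted edgeR p under 0.05 was found for 11 of the 16, beside 8316 of all 13528 tested genes. The median log2 fold change was 0.02. DESeq2, limma-voom and limma on log2 FPKM called 0 DEGs in this list as well. Socs4 came nearest to the fold threshold with a log2 fold change of -0.55 (edgeR FDR 1.62e-05), and it was a DEG without shNC replicate 3 and with scaling by library size only. Ptpn6, which encodes the phosphatase SHP-1, was at 537, 526 and 539 CPM in shNC and at 388, 387 and 404 CPM in shTrem2, a log2 fold change of -0.44 (edgeR FDR 1.1e-06). Socs2, a STAT5 target like Cish, was at 1 count or fewer in shNC and at between 3 and 5 counts in shTrem2, too few for a test.

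In the arm of the receptor that runs through IRS proteins and PI3K, 10 of 12 genes were tested. Fes, a tyrosine kinase of myeloid cells, was the only DEG, at 57.0, 62.0 and 69.4 CPM in shNC and 128.5, 132 and 128.5 CPM in shTrem2, a log2 fold change of 1.04 (edgeR FDR 1.76e-08). The list's median was 0.15, and 7 genes passed FDR alone (5 higher, 2 lower), beside 57.4% of all tested genes. Irs2, the adaptor that usually couples the IL-4 receptor to PI3K in macrophages, was at 0 counts in all 6 libraries and Irs1 at 2 counts or fewer.

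**Figure D5:**
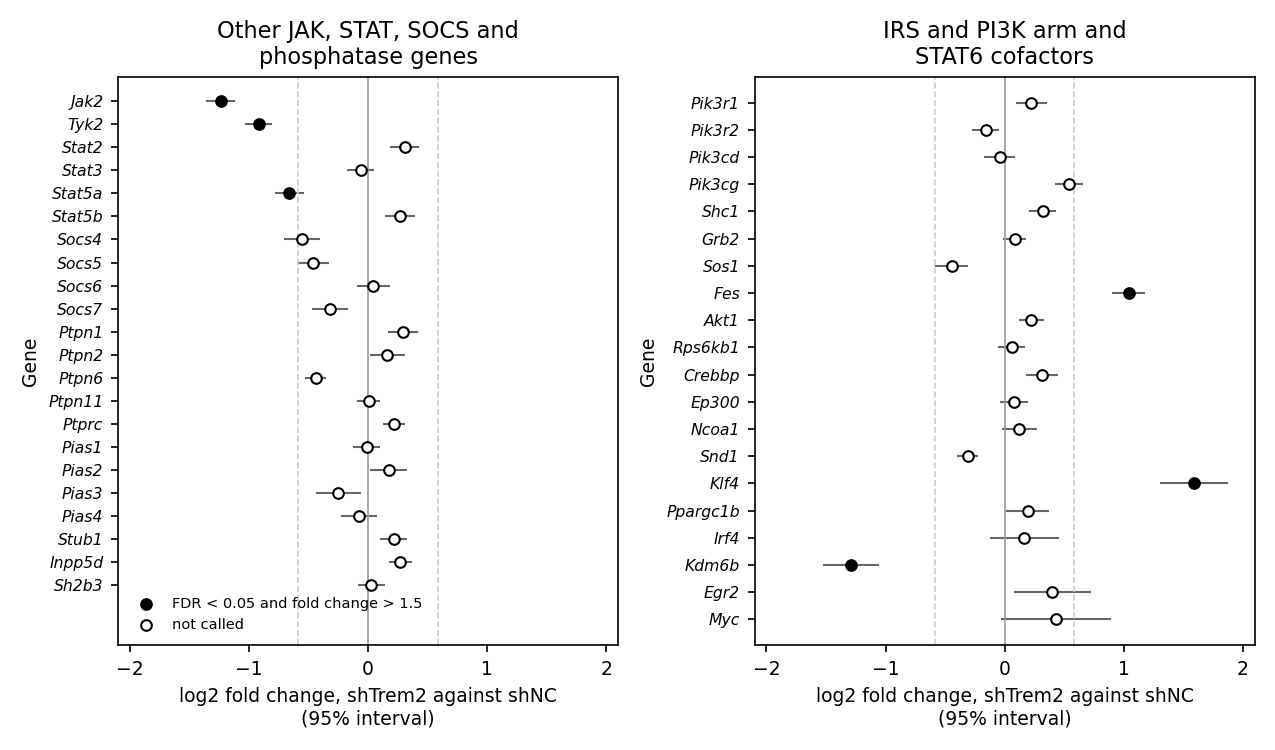
Log2 fold change, shTrem2 against shNC, with 95% intervals, of the tested JAK, STAT, SOCS, phosphatase and PIAS genes reported here (left) and of the tested genes of the IRS and PI3K arm and the STAT6 cofactors (right). Filled points passed both criteria and dashed lines mark the 1.5-fold threshold. Jak2, Tyk2, Stat5a and Kdm6b lie below it, and Fes and Klf4 above it.

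Of 12 cofactors and transcription factors that act with STAT6, 10 were tested and 2 were DEGs in opposite directions, with a list median of 0.18. Klf4, a factor that works with STAT6 in alternative activation, was at 9.93, 8.37 and 9.39 CPM in shNC and at 27.8, 32.8 and 22.5 CPM in shTrem2, a log2 fold change of 1.59 (edgeR FDR 3.04e-07). Kdm6b, the histone demethylase JMJD3, was at 37.1, 37.8 and 31.1 CPM in shNC and at 16.3, 15.1 and 11.9 CPM in shTrem2, a log2 fold change of -1.29 (edgeR FDR 3.92e-07). Pparg was at 1 count or fewer in every library.

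Many of the genes known as IL-4 and STAT6 targets in macrophages had few or no counts in either group. Of 22 such genes 12 were not tested, 9 of these were at 3 counts or fewer in every library, and 6 of the 9 were at 0 throughout, among them Chil3, Retnla and Ccl24. Arg1, the enzyme by which alternatively activated macrophages are commonly recognised, held 2, 2 and 2 counts in shNC and 1, 3 and 1 counts in shTrem2, so that no fold change can be given. In other assays the study reported that IL-4 raised Arg1 transcription and protein in RAW264.7 cells, and that Trem2 knockdown reduced Arg1. The reason for the difference from these libraries was not tested. Of the 10 target genes tested, 8 were DEGs, 5 higher and 3 lower, beside 21.8% of all tested genes. The list's median was 1.00, but several of these genes were measured with few counts. Some, such as Mrc1, Tfec and Ccl22, passed the filter on low counts only through the group where they were higher. The count of DEGs and the median therefore depend on that filter. With a filter of at least 10 counts in every library, which removes genes low in one group, the DEGs of the list were Clec10a, Flt1 and Tgm2.

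By size of change among the tested genes of the list, Mrc1, Tfec, Ccl22 and Tgm2 came first. Mrc1, Tfec and Ccl22 passed the filter only through the group where they were higher, so their place in this order depends on that filter. Mrc1, the mannose receptor, was at 5, 14 and 6 counts in shNC and at 62, 71 and 56 counts in shTrem2, a log2 fold change of 2.76 (SE 0.34, edgeR FDR 1.22e-05). Tgm2, a transglutaminase, was at 11, 12 and 13 counts in shNC and at 67, 67 and 40 counts in shTrem2, a log2 fold change of 2.12 (SE 0.31, edgeR FDR 5.73e-05). Both groups of libraries were well separated for these genes, though at a low level. Tfec, a transcription factor of macrophages, had a log2 fold change of 2.45 on 29 counts or fewer per library (edgeR FDR 0.00113). Ccl22, a chemokine, had a log2 fold change of -2.34 on 18 counts or fewer per library (edgeR FDR 0.00284).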

How the data were processed

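RNA-seq libraries of RAW264.7 cells (shNC and shTrem2, 3 each) were grouped by the shRNA in their labels. According to the study's methods, fastp was used for trimming, HISAT2 for alignment (orientation-aware) and StringTie for assembly. The labels name the GRCm39 build, and the counting tool is not given in the sources used here. The authors deposited estimated counts per transcript row, labelled by gene symbol and scaled for neither depth nor length, and FPKM values per gene. The authors' group means were not used.

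Estimated counts were added up for each symbol and then rounded. Between 0.908% and 1.12% of each library's counts carried no symbol and were not used. Differential expression was tested over 13528 genes with edgeR 4.0.16 in R 4.3.3 (TMM, filterByExpr, glmQLFit and glmQLFTest), without covariates, with Benjamini-Hochberg adjustment over all of them. The pipeline was tested on simulated data. CPM are TMM-scaled. DEGs had an FDR under 0.05 and a fold change over 1.5. Ratios of genes used log2((FPKM + 0.1)/(FPKM + 0.1)) per library. Transcript rows were assigned to GENCODE M21 transcripts by rebuilding each gene's FPKM. The rebuilt values fell within 0.432% of the deposited FPKM for every member except Il4ra. For Jak3 another assignment was nearly as good, so its rows are not named. Promoter sequences came from RefSeq (GRCm38.p6), with a window for all 10 members.

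The members and the gene lists were chosen with earlier results of these data known. The text names every member, up to 4 DEGs with the largest change in each list, and Jak2, Tyk2, Stat3, Stat5a, Stat5b, Irs2, Arg1, Ptpn6, Socs2 and Trem2. Socs4, Irs1, Pparg, Chil3, Retnla, Ccl24, Clec10a, Flt1, Il4, Il13, Insl3, Csf2rb2, Lifr and the cell type markers named were chosen after their values were seen. A gene of the JAK and STAT list is not reported here, and its counts leave it out. No 2 libraries of a group agreed within counting noise (chi-square per degree of freedom at least 2.53), so none was treated as a repeat deposit. Alternatives were DESeq2 1.42.0, limma 3.58.1 (voom, and trend on log2 FPKM), other scalings, filters and thresholds, a replicate block, an effective-length offset, and each library left out.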

Additional observations from a re-analysis of the deposited data

How the results depend on the processing

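Il4ra, Il13ra1, Cish and Il4i1 remained DEGs under all 18 alternatives run for each, with log2 fold changes from -1.44 to -0.79, from 1.12 to 1.30, from -3.00 to -2.07 and from -3.23 to -2.99, and the other 6 genes were DEGs under none. Signs that turned were those of Il2rg (-0.0087 with the effective-length offset, -0.0422 for limma on log2(FPKM + 1) and -0.0428 on log2(FPKM + 0.1)) and of Socs1 (from -0.10 without shTrem2 replicate 2, and -0.048 without shNC replicate 2, to 0.23 without shTrem2 replicate 3). The FDR of Il2rg was 0.0274 without shTrem2 replicate 2 and 0.0168 for its most abundant transcript row. A fold change over 2 left 1339 DEGs and 1 of the other JAK and STAT genes. No fold threshold gave 7763 genes, 7 members, and 5 JAK and STAT, 2 receptor and ligand, 9 SOCS and phosphatase, 7 IRS and PI3K and 5 cofactor genes. Library size only called 1 SOCS and phosphatase gene (Socs4). At least 10 counts in every library left 3 target genes, and limma on log2(FPKM + 1) left 5 target genes and 5 of the other cytokine and receptor genes. Leaving out each library gave 2789 to 3104 DEGs, 4 members throughout, 0 to 1 SOCS and phosphatase gene and 1 to 2 IRS and PI3K genes, the higher count in both cases without shNC replicate 3. The same replicate numbers did not pair the libraries (correlations of deviations of 0.01, -0.00 and 0.01), and the replicate block gave 2911 DEGs and called 4 members. At these depths 9 of the 22 target genes were at 3 counts or fewer in every library.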

Other observations

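Other cytokines and receptors that signal through JAK and STAT proteins were also measured, as a list of 29 genes of which 18 were tested. Of these, 9 were DEGs, 3 higher and 6 lower, beside 21.8% of all tested genes, and the median log2 fold change was -0.13. Csf3 and Lif passed the filter on low counts only through shNC, where they were higher, so these values depend on that filter. With at least 10 counts in every library 7 genes of the list were DEGs, and Csf3 and Lif were not among them. The groups did not overlap for 15 of the 18, beside 63.8% of all tested genes. The genes of the CSF3 axis, which drives granulocytes, were lower: Csf3 held 24, 39 and 14 counts in shNC and 1, 4 and 4 counts in shTrem2 (log2 fold change -3.19, SE 0.55, edgeR FDR 0.00023), and its receptor Csf3r was at 30.5, 29.6 and 31.4 CPM in shNC and at 6.93, 11.2 and 7.92 CPM in shTrem2 (log2 fold change -1.81, SE 0.13, edgeR FDR 9.23e-08). Lif, a ligand of gp130 receptors, held 11, 23 and 19 counts in shNC and 4, 4 and 2 counts in shTrem2 (log2 fold change -2.49, edgeR FDR 0.000568). In the other direction, Csf2rb, the common beta chain of the CSF2, IL-3 and IL-5 receptors, was at 13.9, 13.9 and 15.6 CPM in shNC and at 40.9, 41.3 and 38.9 CPM in shTrem2 (log2 fold change 1.48, SE 0.08, edgeR FDR 3.25e-09). Csf2rb and its close copy Csf2rb2 (log2 fold change 1.15) may share reads, so their separate values are uncertain. Lifr, which encodes the receptor chain of LIF, was higher too, against the direction of Lif. It held 32, 43 and 43 counts in shNC and 131, 116 and 100 in shTrem2 (log2 fold change 1.415, edgeR FDR 2.67e-05).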
